A study of Homo sapiens with 8 samples.

Results

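The tissue kallikreins KLK5 to KLK14 were followed in HaCaT cells, an established line of human keratinocytes, which are the main cells of the epidermis. The 10 genes were chosen by name as the kallikreins found in epidermis, and all 10 were among the 17131 genes of the expression table. The 8 libraries were all wild-type HaCaT cells stimulated with M5, a psoriasis-like stimulus made of 5 cytokines, namely TNF-α, oncostatin M, IL-1α, IL-17A and IL-22, each at 10 ng/mL for 24 h. OTS514, an inhibitor of the kinase TOPK, was used at 10 nM from 12 h before M5 onwards in the treated group. There were 4 libraries titled M5_O5 and 4 titled M5. By its title M5_O5 would be the OTS514 group, but the treatment entered for these 4 libraries was no treatment and that entered for the libraries titled M5 was the TOPK inhibitor. Groups are therefore named by title, all differences are M5_O5 minus M5, and each direction with OTS514 is exchanged if the entered treatment is the right one. No library without M5 was analysed here, so the response to the cytokines themselves could not be compared. HaCaT is an immortalised line, and nothing said that the 4 libraries of a group came from separate cultures, so p-values measure the spread between these libraries, which may be technical.

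Kallikreins are secreted serine proteases that are made as inactive precursors and activated when a short leading peptide is cut off. In epidermis they form a cascade at the skin surface: KLK5, a trypsin-like protease, can activate itself, KLK7 and KLK14, and the active enzymes cut corneodesmosin, desmoglein 1 and desmocollin 1, the proteins that hold dead surface cells together. LEKTI, the product of SPINK5, inhibits KLK5, KLK7 and KLK14, and its loss in Netherton syndrome leads to premature shedding and inflammation. KLK5 can also signal through the receptor PAR2, encoded by F2RL1, and process the antimicrobial peptide precursor encoded by CAMP. RNA levels say nothing of how much enzyme was active.

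Total estimated counts ranged from 13708055 to 16922693 per library, the lowest in M5 replicate 1. Across the 12434 genes tested with edgeR's quasi-likelihood test, 2420 were higher and 2192 lower in M5_O5 at an adjusted p under 0.05, and scaling by library size alone gave 3858 higher and 1008 lower and moved the median of all genes from 0.01 to 0.13 on the log2 scale. PBK, which encodes TOPK, had 3.60, 2.93, 2.25 and 3.15 CPM (counts scaled to a common library size) in the M5_O5 libraries and 2.63, 0.588, 0.987 and 0.685 in the M5 libraries. The log2 fold change of PBK was 1.32 (edgeR, adjusted p = 0.00738), and 1.98 (adjusted p = 1.87e-05) without M5 replicate 1. That library was the highest of its group in PBK, KRT1 and KRT10. Of these genes, the outlier check given below flagged it in KRT10 alone. The keratinocyte identity of the cells was clear from KRT5, at 1594 to 2082 CPM, and KRT14, at 3242 to 5217 CPM.

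The sequences just before the outermost RefSeq start of KLK5 and KLK7 are shown because these 2 genes were the members that were higher in M5_O5, and because AP-1, STAT and NF-κB factors are the usual nuclear ends of the pathways that M5 cytokines use. Each sequence is the 250 bases before the start, from the RefSeq window of GRCh38.p14, written 5′ to 3′ on the minus strand, with capitals marking matches on either strand to the outline of an NF-κB site, which is GGG, any 5 bases and CC.
KLK5 (chr19:50953039-50953288): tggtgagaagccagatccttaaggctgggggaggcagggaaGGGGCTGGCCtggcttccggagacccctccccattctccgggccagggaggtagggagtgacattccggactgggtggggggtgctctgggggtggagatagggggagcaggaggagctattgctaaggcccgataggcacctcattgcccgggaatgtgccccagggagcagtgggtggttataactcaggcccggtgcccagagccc
KLK7 (chr19:50984065-50984314): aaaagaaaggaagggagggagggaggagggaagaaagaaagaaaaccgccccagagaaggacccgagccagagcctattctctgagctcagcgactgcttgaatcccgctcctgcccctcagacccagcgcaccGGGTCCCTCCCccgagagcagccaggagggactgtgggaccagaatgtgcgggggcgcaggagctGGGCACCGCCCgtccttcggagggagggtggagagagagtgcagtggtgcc
The KLK5 window held 1 such match, 209 to 200 bases before the start. The KLK7 window held overlapping matches 116 to 106 bases and 51 to 41 bases before the start. The outline was common, in 54.4% of all 35116 windows of this length, and the fuller NF-κB consensus, searched after the outline proved so common, was in 9.96% of windows. It was in neither of those printed, but in both other RefSeq windows of KLK7, 94 to 85 and 196 to 187 bases before their starts, and in windows of KLK9 and KLK10. Whether these KLK7 matches are the same site seen in overlapping windows was not checked. The AP-1 motif TGANTCA and the STAT motif TTCNNNGAA were each in 6.57% of all windows and in no window of the 9 kallikreins that had one. A match is a description of the letters and no match says only that the letters are not in the window.

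By level the family was spread over more than 3 orders of magnitude only if KLK12, with at most 2 reads in a library, is counted. Levels of different genes were compared in TPM, which scale counts by transcript length and library. In the M5 libraries KLK10, first described as a gene of normal epithelial cells, was the most abundant at 186 ± 7.87 TPM (mean ± SD, n = 4), followed by KLK8, a trypsin-like protease also called neuropsin, at 131 ± 6.93 TPM. KLK5 at 39.2 ± 5.92 TPM and KLK11 at 38.4 ± 2.1 TPM came next and overlapped, from 34.8 to 47.5 for KLK5 and from 35.3 to 39.6 for KLK11. KLK13 at 11.6 ± 1.53 and KLK7 at 5.10 ± 0.840 TPM followed. KLK9 at 1.84 ± 0.362 TPM overlapped with KLK6 at 0.853 ± 0.522, which overlapped with KLK14 at 0.420 ± 0.230 TPM. KLK12, at 0 to 0.130 TPM, was apart from KLK14.

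The order of the 10 genes by mean TPM was the same in the M5_O5 libraries, but KLK5 was apart from KLK11 there. KLK5 was at 72.8 to 86.6 TPM in M5_O5 and KLK11 at 26.3 to 34.6 TPM. KLK10 was at 201 ± 7.48 TPM, KLK8 at 137 ± 11.9, KLK13 at 15.1 ± 2.54, KLK7 at 7.23 ± 1.03 and KLK9 at 2.44 ± 0.270 TPM (n = 4 each), and of neighbours in this order KLK6 and KLK14 alone overlapped.

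**Figure D1:**
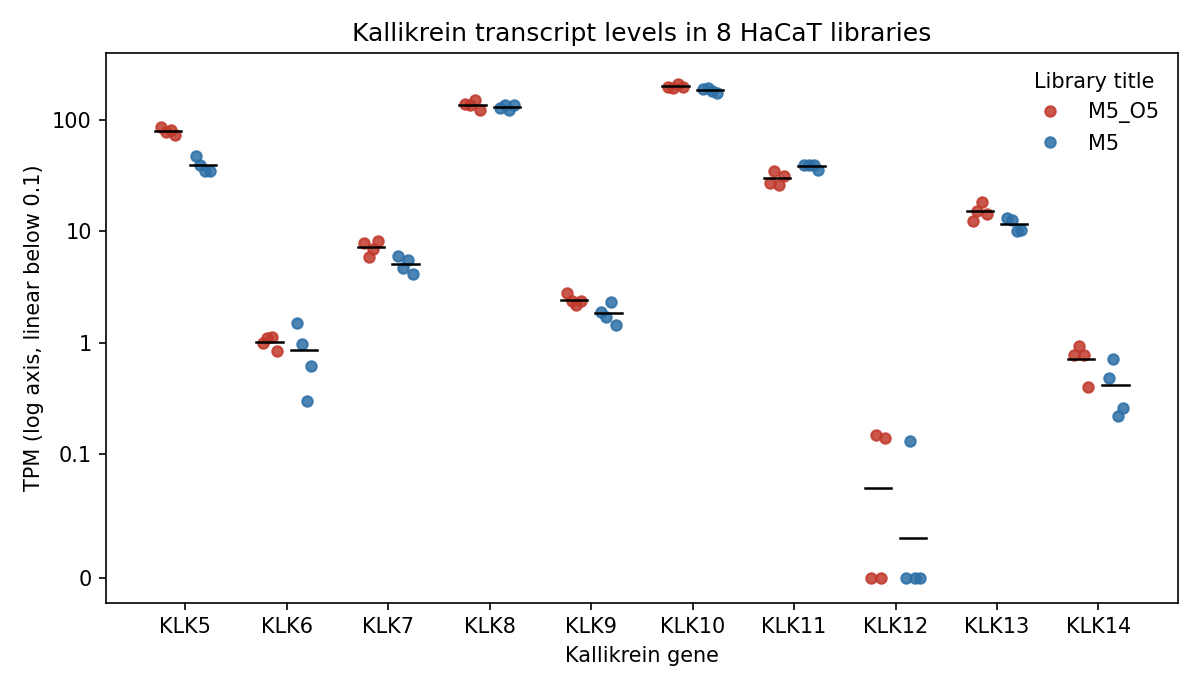
Level of each kallikrein in TPM (log axis that is linear below 0.1) in the 4 M5_O5 libraries (red) and the 4 M5 libraries (blue), with points for libraries and black lines for group means. KLK5 lies at 72.8 to 86.6 TPM in M5_O5 and 34.8 to 47.5 TPM in M5, while KLK10 and KLK8 are the highest in both groups.

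Of the 10 members, 8 had enough reads to be tested, and KLK5 and KLK7 were higher in M5_O5, KLK11 was lower, and 5 did not pass. Over all genes tested 19.5% were higher, 17.6% lower and 37.1% passed in either direction, so 3 of 8 was close to the share over all genes and is no result about the family. KLK5, KLK7 and KLK11 were also the members whose groups did not overlap, as was true of 33.6% of all genes tested. None of the 8 reached 2-fold, which 3.2% of all genes did with an adjusted p under 0.05. The median log2 fold change of the 8 was 0.24 against 0.01 over all genes. It lay between KLK13 at 0.232 and KLK6 at 0.256, which did not pass. With the trend of the difference on expression level removed, KLK13 was at 0.118 and KLK6 at -0.059.

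KLK5, the protease at the head of the cascade, showed the clearest difference. It had 52.3, 50.4, 52.2 and 44.6 CPM in the M5_O5 libraries and 29.3, 28.3, 24.0 and 23.9 CPM in the M5 libraries, from 365 to 900 reads. The lowest M5_O5 library was above the highest M5 library. KLK5 was 1.9-fold higher in M5_O5 (95% interval 1.68 to 2.14), a log2 fold change of 0.92 with a standard error of 0.08 (edgeR quasi-likelihood test, adjusted p = 2.93e-06). The two-sided exact permutation test of the CPM values gave p = 0.0286, the smallest that 4 against 4 libraries allow. KLK5 passed in all 18 other settings tried, with log2 fold changes from 0.88 to 1.04. It reached 2-fold in 3 of them, which were the scaling by library size alone and both fits of log2 TPM. In these 3 the median of all genes was 0.128, 0.116 and 0.135, against 0.012 in the main fit. Without M5 replicate 1, which had the highest KLK5 level of its group, the log2 fold change was 0.97.

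All 5 RefSeq transcripts of KLK5 in the table were higher in every M5_O5 library than in any M5 library. This held in estimated counts, which are not scaled by library size, and in TPM. Of the 43 kallikrein transcripts 7 had groups apart in counts, among them NM_145888 of KLK10, a gene whose own groups overlapped. The share over all transcripts was not computed. Over genes tested, 33.6% had groups apart in CPM. The KLK5 transcripts divide the reads of a single gene, so they are not separate support for its difference. The leading KLK5 transcript, NM_001077492, had 584, 526, 507 and 419 estimated counts in M5_O5 and 263, 296, 215 and 274 in M5. NM_012427 had 81.0 to 131 counts in M5_O5 and 26.8 to 46.9 in M5, and NM_001077491 had 78.2 to 126 and 17.8 to 35.1. These 3 transcripts have the same coding sequence of 879 bases in their GENCODE models and differ outside it. The leading transcript took 59.5% ± 3.93 of the KLK5 counts in M5_O5 and 66.1% ± 5.29 in M5 (SD, n = 4), ranges that overlapped. The counts of transcripts that share exons are estimates, and a RefSeq noncoding gene that overlaps KLK5 and KLK6 was not among the rows of the table, so with no strand setting given in the sources used here its reads could not be told apart from those of KLK5.

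**Figure D2:**
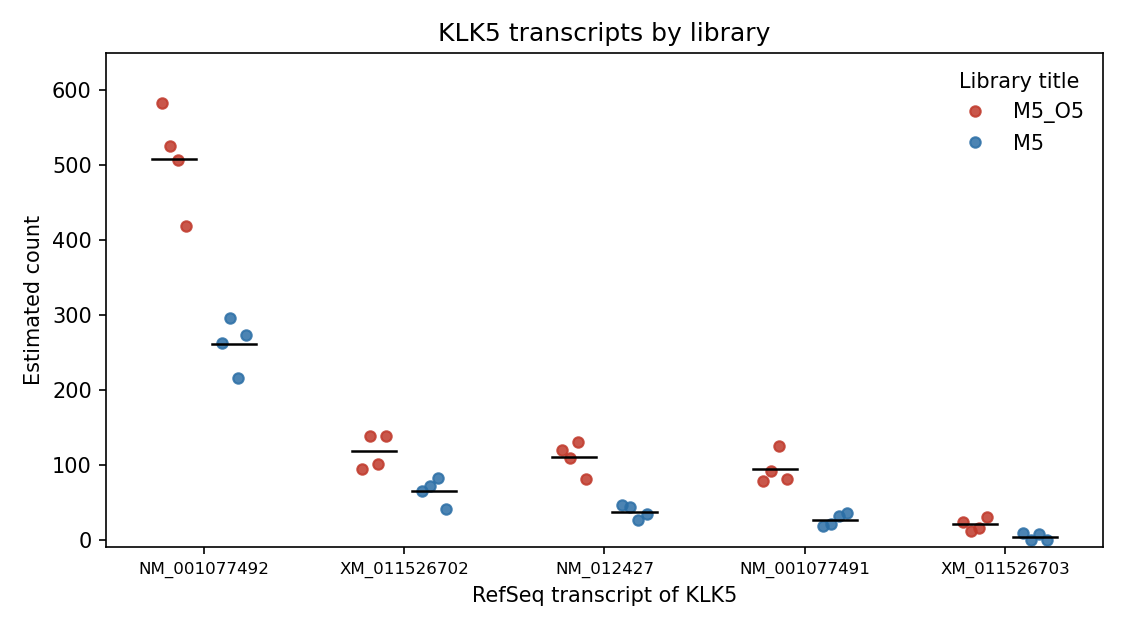
Estimated counts of the 5 RefSeq transcripts of KLK5 in the 4 M5_O5 libraries (red) and the 4 M5 libraries (blue), with points for libraries and black lines for group means. The leading transcript lies at 419 to 584 counts in M5_O5 and 215 to 296 in M5, and the groups of the other 4 transcripts are also apart.

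KLK7, the chymotrypsin-like protease that KLK5 can activate, had 7.32, 6.03, 6.93 and 7.84 CPM in the M5_O5 libraries and 5.77, 5.09, 5.99 and 4.61 CPM in the M5 libraries. The groups were apart by a small margin, between 6.03 and 5.99 CPM. KLK7 was 1.31-fold higher in M5_O5 (95% interval 1.09 to 1.58), with a log2 fold change of 0.39, a standard error of 0.13 and an adjusted p of 0.0255 (edgeR). The exact permutation p was 0.0286. This call was fragile: it was lost with DESeq2 (0.37, adjusted p = 0.0535), when the trend of the difference on expression level was removed (0.21, adjusted p = 0.222), and without M5_O5 replicate 1 (0.37, adjusted p = 0.0511), M5_O5 replicate 4 (0.34, adjusted p = 0.0793), M5 replicate 2 (0.37, adjusted p = 0.0657) or M5 replicate 4 (0.32, adjusted p = 0.0929). The fold change stayed above 0 in all 18 settings, from 0.21 to 0.51. No single KLK7 transcript had groups that were apart in counts, and NM_005046, the leading one, had 69.6 to 86.4 counts in M5_O5 and 25.0 to 74.0 in M5. In TPM its groups were narrowly apart, at 4.21 to 4.77 in M5_O5 and 1.41 to 4.17 in M5.

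KLK11, a trypsin-like kallikrein of the upper epidermis, was the member that was lower in M5_O5. It had 14.30, 18.84, 14.64 and 16.94 CPM in the M5_O5 libraries and 21.2, 24.1, 24.0 and 21.1 CPM in the M5 libraries. The highest M5_O5 library was below the lowest M5 library. KLK11 was at 0.72 of its M5 level (95% interval 0.62 to 0.83), with a log2 fold change of -0.48, a standard error of 0.10 and an adjusted p of 0.00152 (edgeR). The exact permutation p was 0.0286. It passed in all 18 other settings, with log2 fold changes from -0.56 to -0.36. The leading transcript NM_001136032 held 63.7% ± 7.20 of KLK11 counts in M5_O5 and 68.3% ± 7.24 in M5 (SD, n = 4). None of the 7 KLK11 transcripts had groups that were apart.

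The 2 most abundant members had narrow intervals around 0. KLK10 had 168, 173, 184 and 168 CPM in M5_O5 and 162, 191, 174 and 165 CPM in M5, and the groups overlapped. Its log2 fold change was 0.001 (95% interval -0.13 to 0.13, adjusted p = 0.993, edgeR), and its sign changed with the scaling. KLK8 had 35.1, 37.7, 43.9 and 34.3 CPM in M5_O5 and 34.2, 43.4, 38.2 and 40.4 CPM in M5. Its log2 fold change was -0.05 (95% interval -0.24 to 0.14, adjusted p = 0.683, edgeR), with a sign that was positive under library size scaling alone. As ratios of M5_O5 to M5, the intervals ran from 0.91 to 1.09 for KLK10 and from 0.85 to 1.10 for KLK8.

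KLK13, KLK9 and KLK6 were measured with less certainty. KLK13, a trypsin-like kallikrein of stratified epithelia, had 10.75, 14.02, 17.25 and 12.24 CPM in M5_O5 and 11.97, 13.39, 10.40 and 10.47 CPM in M5. Its log2 fold change was 0.23 (95% interval -0.06 to 0.52, adjusted p = 0.197, edgeR), and fits of log2(TPM + 1) and log2(TPM + 0.1) with limma gave 0.36 (adjusted p = 0.0452) and 0.38 (adjusted p = 0.0431). All KLK13 counts of the M5 libraries, 158 to 205, were assigned to NM_015596. In M5_O5 that transcript held 90.8% ± 4.83 (SD, n = 4), NM_001348177 had 7.66, 12.96, 9.75 and 0.97 counts, and NM_001348178 had 5.43, 19.9, 0 and 25.4 counts, while both were listed at 0 in the 4 M5 libraries.

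KLK9, a chymotrypsin-like member, had 31, 28, 25 and 26 reads in M5_O5 and 17, 20, 26 and 17 in M5. Its log2 fold change was 0.28 (95% interval -0.16 to 0.72, adjusted p = 0.31, edgeR), and it was 0.004 once the trend on expression level was removed. KLK6, a trypsin-like member, had 12, 13, 14 and 10 reads in M5_O5 and 15, 10, 3 and 8 in M5. Its log2 fold change was 0.26 (95% interval -0.55 to 1.06, adjusted p = 0.622, edgeR), so that even a 2-fold difference lay within the interval.

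KLK14 and KLK12 had too few reads to be tested. KLK14, a trypsin-like protease with strong activity in the outermost layer, had 6, 8, 6 and 3 reads in M5_O5 and 3, 6, 2 and 2 in M5 (exact permutation p = 0.2 on CPM). KLK12 had 0, 2, 0 and 2 reads in M5_O5 and 0, 1, 0 and 0 in M5 (exact permutation p = 0.429). A count of 0 allows up to 3 reads, or 0.172 to 0.219 CPM in these libraries, counting error alone, so a difference in KLK12 was not detectable at this depth.

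Of the family total, KLK5 took a larger share and KLK11 a smaller one in M5_O5, given here as a description. In CPM the summed level of the 10 members was 286.4 to 321.5 in M5_O5 and 267.2 to 307.5 in M5, and the groups overlapped. Fits of log2(TPM + 1) and log2(TPM + 0.1) put the median log2 fold change of all genes at 0.116 and 0.135. In TPM the summed level of the 10 members was 451 to 500 in M5_O5 and 398 to 430 in M5. KLK5 made up 18.1%, 16.7%, 16.2% and 16.2% of that sum in the M5_O5 libraries and 11.1%, 9.21%, 8.74% and 8.75% in the M5 libraries. KLK11 made up 5.25% to 7.38% in M5_O5 and 8.81% to 9.96% in M5. KLK10 remained the largest share, 41.6% to 43.9% and 43.9% to 45.9%, and KLK8 the next.

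Ratios within a library do not depend on how libraries were scaled. The KLK5 to KLK11 ratio of TPM was 3.17, 2.26, 3.09 and 2.32 in M5_O5 and 1.21, 1.01, 0.877 and 0.993 in M5. The KLK5 to KLK10 ratio was 0.368 to 0.433 in M5_O5 and 0.190 to 0.251 in M5. The KLK5 to KLK7 ratio was 8.87 to 13.3 in M5_O5 and 6.26 to 8.49 in M5. The groups were apart in each of these ratios, which are given as a description.

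**Figure D3:**
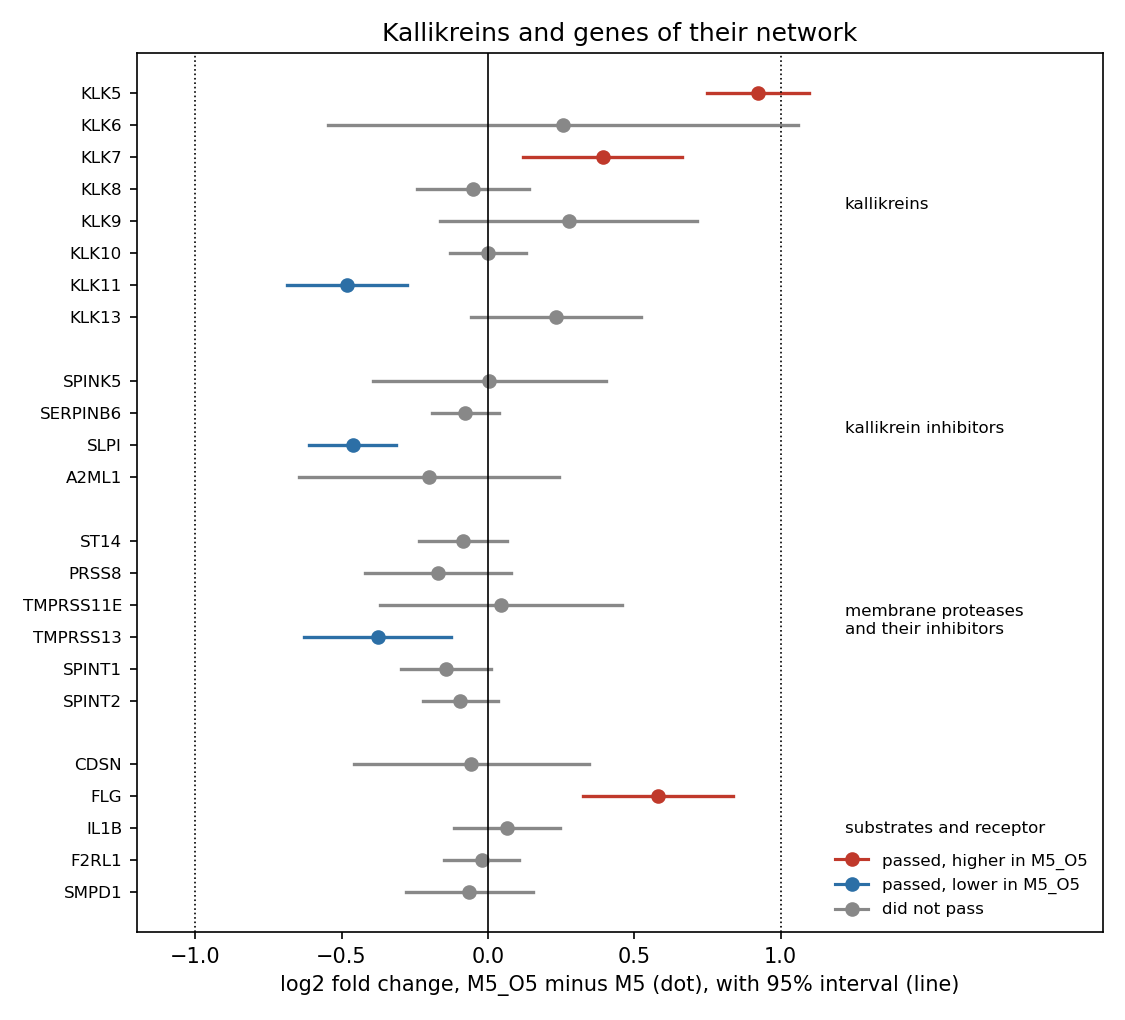
Log2 fold change (M5_O5 minus M5) with its 95% interval for the 8 kallikreins tested and the 15 tested genes of their network, where red passed as higher in M5_O5, blue passed as lower and grey did not pass, and dotted lines mark 2-fold. KLK5 at 0.92 and KLK11 at -0.48 stand apart from 0, the interval of KLK10 is narrow around 0, and that of KLK6 is the widest.

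Of the genes that act with the kallikreins, 30 were listed in 4 groups, 15 were tested, 1 was higher and 2 were lower in M5_O5, where 19.5% and 17.6% of all genes tested were. The inhibitors came to 8, of which 4 were tested, with a median log2 fold change of -0.14. SLPI, a secreted inhibitor of leukocyte and skin proteases, had 397, 337, 376 and 347 CPM in M5_O5 and 453, 535, 535 and 485 CPM in M5, with no overlap. It was lower in M5_O5 by a log2 fold change of -0.46 (SE 0.07, adjusted p = 0.000187, edgeR). SPINK5, which encodes LEKTI, had 2.85, 4.25, 3.91 and 3.68 CPM in M5_O5 and 4.96, 3.53, 2.70 and 3.55 CPM in M5, with a log2 fold change of 0.004 (SE 0.19, adjusted p = 0.99).

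The level of KLK5 was far above that of its inhibitor LEKTI in RNA. The KLK5 to SPINK5 ratio of TPM was 59.3, 36.1, 43.0 and 39.8 in M5_O5 and 19.5, 26.7, 28.3 and 22.3 in M5, and the groups did not overlap. SERPINB6, an intracellular serpin, was at -0.08 (adjusted p = 0.275) and A2ML1, a broad protease inhibitor of the epidermis, at -0.20 (adjusted p = 0.471). SPINK9 was at 0 reads in all libraries, SPINK6 and SERPINA5 reached at most 0.238 and 0.296 CPM, and SERPINA12 was not among the rows.

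The membrane proteases that can activate kallikreins, with the inhibitors of those proteases, came to 8, of which 6 were tested with a median of -0.12. ST14, which encodes matriptase, was at 292 to 341 CPM in M5_O5 and 298 to 371 in M5, with a log2 fold change of -0.09 (SE 0.07, adjusted p = 0.361). TMPRSS13, another membrane serine protease, was lower in M5_O5 at -0.38 (SE 0.12, adjusted p = 0.0216), but it had 16.0, 17.8, 18.7 and 18.4 CPM in M5_O5 and 16.6, 25.7, 23.9 and 25.7 in M5, so M5 replicate 1 lay within the M5_O5 range. The call was lost under library size scaling alone (-0.26, adjusted p = 0.0813), in both fits of log2 TPM, and without M5_O5 replicate 1 or M5 replicates 2, 3 or 4. SPINT1, which encodes an inhibitor of matriptase, was at -0.14 (adjusted p = 0.132). Without M5 replicate 1, 5 network genes passed in place of 3, with PRSS8 (-0.28, adjusted p = 0.0189) and SPINT1 (-0.20, adjusted p = 0.0104) added.

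Of the 8 substrate and receptor genes, 5 were tested and 1 passed, with a median of -0.02. FLG, which encodes filaggrin, was higher in M5_O5, with 15.40, 14.99, 16.30 and 13.25 CPM against 12.9, 9.47, 8.62 and 9.28 CPM in M5 (log2 fold change 0.58, SE 0.12, adjusted p = 0.0018). F2RL1, the gene of PAR2, was at 41.2 to 45.9 CPM in M5_O5 and 43.0 to 45.9 in M5, and its interval was narrow (-0.02, SE 0.06, adjusted p = 0.805). IL1B was at 0.07 (adjusted p = 0.565), SMPD1 at -0.06 (adjusted p = 0.651) and CDSN, the corneodesmosin gene, at -0.06 with 2.18 to 3.75 CPM (adjusted p = 0.836). IL1B passed as higher with the trend on expression level removed (0.23, edgeR, adjusted p = 0.0181). It also passed with limma on log2(TPM + 1) and log2(TPM + 0.1), at 0.19 in each (adjusted p = 0.0434 and 0.0428). The median of all genes was 0.116 and 0.135 on these scales. DSG1, the gene of desmoglein 1, was at 0 to 0.511 CPM, DSC1 at 0 to 0.119 and CAMP at 0 to 0.115, and none of the 3 had enough reads to be tested. The other kallikreins KLK1, KLK2, KLK4, KLK15 and KLKB1 reached at most 0.416 CPM in any library and were not tested, and KLK3 was not among the rows.

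Markers of the keratinocyte state also differed between the groups, and their part in the values of KLK5, KLK7 and KLK11 was not tested. The counts that follow stand beside 19.5% higher and 17.6% lower over all genes tested. In bulk RNA, fewer cells of a state and less RNA per cell cannot be told apart. Of 8 basal markers 6 were lower in M5_O5, among them KRT14 at -0.40 (adjusted p = 0.000868), and none was higher, with a summed level of 13450 to 14570 CPM in M5_O5 and 17400 to 18750 in M5. KRT5 was at -0.10 (adjusted p = 0.299). Of 12 differentiation markers 9 were tested, 4 were lower and 1 was higher, with a summed level of 613 to 810 CPM and 887 to 1097 CPM. The largest parts of that sum were TGM1, which did not pass, at means of 358.1 and 415.6 CPM, and SPRR1B, at 211.5 and 311.0. Lower were KRT1, KRT10, IVL (-0.75, edgeR, adjusted p = 3.71e-05, groups apart) and SPRR1B (-0.557, adjusted p = 0.00413, groups overlapping). The marker that was higher was DMKN, at 0.32 (edgeR, adjusted p = 0.00481) with groups apart. FLG, listed with the substrates, was higher too, at 0.58. KRT1 was at 10.8 to 16.5 CPM in M5_O5 and had 117, 47.0, 24.9 and 20.1 CPM in M5, a log2 fold change of -2.04 (adjusted p = 0.00227) that was -1.28 (adjusted p = 0.000298) without M5 replicate 1. KRT10 was at 14.8 to 24.7 CPM in M5_O5 and 24.2 to 77.4 in M5, and the groups overlapped. Its log2 fold change was -1.04 (adjusted p = 0.0171), and -0.49 (adjusted p = 0.0114) without M5 replicate 1. The KRT10 call was lost without M5_O5 replicate 2 (-0.94, adjusted p = 0.0513) and in both fits of log2 TPM. LORICRIN, a marker of the granular layer, was at 0 to 0.197 CPM.

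Markers of other cell types were low or not specific. Of 5 leukocyte markers 2 were tested and 1 was lower, with sums of 79.6 to 98.1 CPM in M5_O5 and 94.2 to 126 in M5 that came from CD68 and CD14, while the defining gene PTPRC was at 0 in all libraries. Of 5 fibroblast markers 2 were tested and 1 was lower, with sums of 31.1 to 35.3 and 42.0 to 56.4 CPM, nearly all of it COL1A1, and PDGFRB was at 0 to 0.119. Of 3 endothelial markers CDH5 was tested and was higher in M5_O5 (3.18, adjusted p = 2.57e-06), at 2.41 to 3.38 CPM against 0.187 to 0.461, and PECAM1 was at 0 to 0.0653. The 3 melanocyte markers in the table summed to 0.698 to 1.09 and 0.803 to 0.914 CPM and were not tested.

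**Figure D4:**
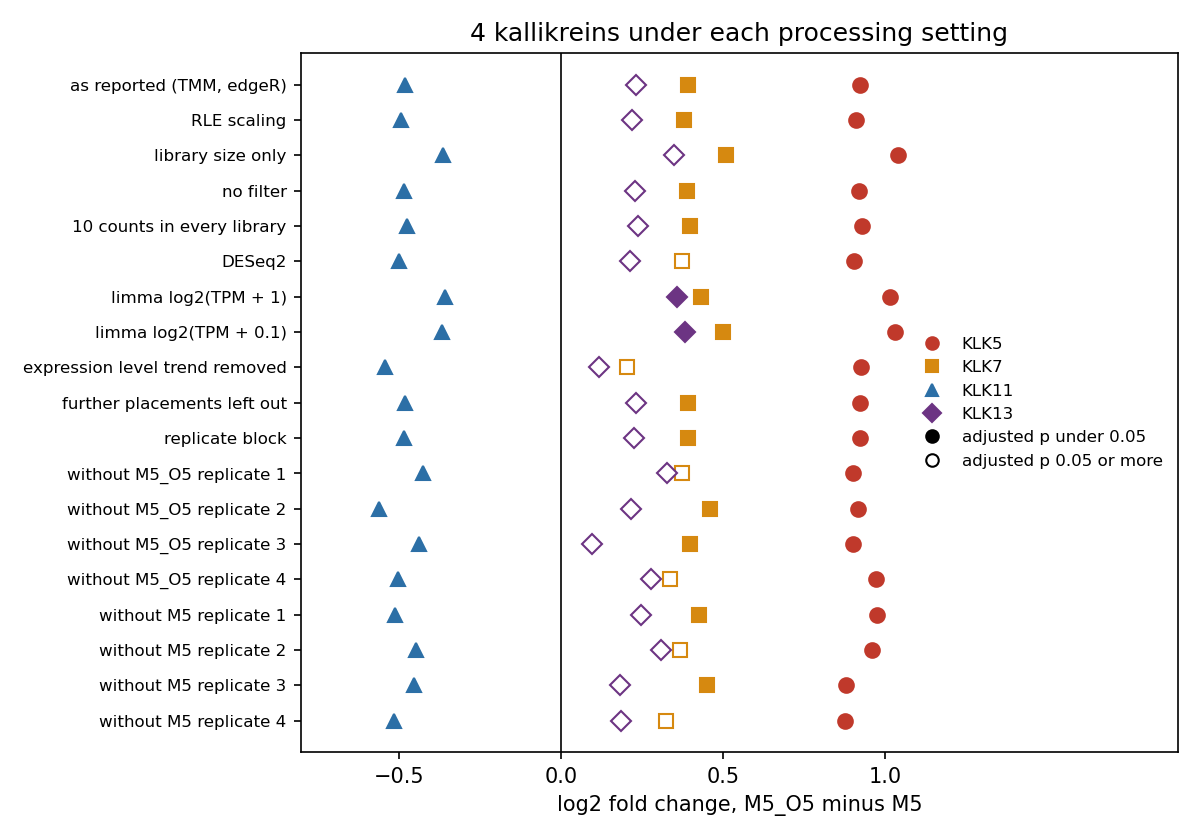
Log2 fold change (M5_O5 minus M5) of KLK5, KLK7, KLK11 and KLK13 as reported and in each of the 18 other processing settings, filled where the adjusted p was under 0.05 and open where it was not. KLK5 (0.88 to 1.04) and KLK11 (-0.56 to -0.36) are filled throughout, KLK7 is open in 6 settings and KLK13 is filled in the 2 fits of log2 TPM.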

How the data were processed

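RNA of 8 HaCaT libraries was analysed. The authors mapped the filtered reads with HISAT2 (2.1.0), counted them with StringTie and deposited, per RefSeq transcript, an estimated count that was not normalized and a TPM value. The deposited FPKM values and group means were not used. The submitters' processing notes also name Bowtie2 2.2.5, RSEM 1.2.8 and a mouse build, which cannot hold human transcripts, so the build used is uncertain and no coordinates are given beyond the RefSeq promoter windows. Of the estimated counts 53.8% were fractional. They were summed over 86639 transcript rows to 17131 genes and rounded. Symbols, gene order and promoter windows came from RefSeq (GRCh38.p14), with windows for 9 of the 10 members.

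Counts were filtered with filterByExpr, scaled by TMM and compared with edgeR's quasi-likelihood test (edgeR 4.0.16, R 4.3.3) over all 8 libraries, with Benjamini-Hochberg adjustment over the 12434 genes tested and a gene called at an adjusted p under 0.05. CPM values use the TMM scaling. The 95% intervals rest on standard errors computed from each F value. For single members a two-sided exact permutation test over 70 arrangements was added. The main edgeR fit and the DESeq2 fit were tested on simulated data, and the other fits were not. A chi-square per gene between replicates was at least 2.01 in every pair, so no library was a copy of another. Alternatives were other scalings and filters, DESeq2 1.42.0, limma 3.58.1 on log2 TPM with pseudocounts of 1 and 0.1, removal of the trend on expression level, a block for the replicate number, and leaving out single libraries.

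Members, lists and tests were chosen with earlier results of these data known. Of each network list the 3 tested genes with the smallest adjusted p were named, with SPINK5, ST14, F2RL1, CDSN and DSG1 whatever their values. Of the markers, KRT5, KRT14, KRT1 and KRT10 were named, with any defining marker past 2-fold. Other genes of the lists were named after their values were seen.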

Additional observations from a re-analysis of the deposited data

Results flagged for a closer look

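Within each group of 4 libraries, the CPM of the kallikreins and the named genes was checked for a library whose gap to the nearest other passed Dixon's 95% critical value, as a part of the group's range. This covered 58 sets of values, of which chance alone flags about 1 in 20, or 2.9, and 4 were flagged. KLK12 stood out in M5 replicate 2, at 0.0653 CPM from 1 read where the other 3 M5 libraries were at 0, so this rests on a single read. KRT10 was at 77.4 CPM in M5 replicate 1 and at 24.2 to 31.5 in the other M5 libraries. KRT5 was at 1594 CPM in M5_O5 replicate 4 and at 1833 to 1859 in the others. KRT14 was at 5217 CPM in M5 replicate 2 and at 4582 to 4653 in the others. No kallikrein with enough reads to be tested was flagged.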

How the results depend on the processing

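KLK5 and KLK11 kept their direction and their call in all 18 alternatives. With KLK7 lost, 1 kallikrein was higher in M5_O5 in place of 2 with DESeq2 and after removing the expression level trend, and the number higher ranged from 1 to 2 over the fits that left out 1 library, with 1 lower in each. KLK7 was at 0.373 with DESeq2, at 0.205 with the trend removed, and between 0.323 and 0.46 with 1 library left out, and it was lost without M5_O5 replicates 1 or 4 and M5 replicates 2 or 4. KLK13 passed at 0.358 and 0.382 on log2(TPM + 1) and log2(TPM + 0.1), scales on which the median of all genes was 0.116 and 0.135. Signs changed in members that did not pass. KLK10 was at -0.013 with RLE scaling, -0.003 with no filter, -0.019 with DESeq2 and between -0.03 and 0.049 with 1 library left out. KLK8 was at 0.067 with library size only, at 0.059 on both TPM scales, and between -0.131 and 0.002 with 1 library left out. KLK6 was at -0.059 with the trend removed and between -0.036 and 0.659 with 1 library left out. The cause of these changes was not tested. The network genes that passed ranged from 2 to 5 with 1 library left out. Deviations of same-numbered libraries from their group means had correlations of 0.278, 0.175, 0.031 and -0.006. Whether these libraries were paired is not known. Blocking for the replicate number gave 2703 genes higher and 2552 lower in M5_O5, in place of 2420 and 2192. With the replicate block, 5 network genes passed in place of 3, with PRSS8 and SPINT1 added, and the 3 kallikrein calls were the same. By TPM in place of counts, the leading transcript of KLK8 held 40.2% and 40.0% in place of 53.3% and 53.5% (M5_O5, M5), and that of KLK10 80.8% and 80.5% in place of 68.2% and 68.4%. Depth limits KLK6, KLK9, KLK12 and KLK14, which had at most 31 reads in a library.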

Other observations

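The kallikrein genes lie side by side on one chromosome, and the 5 nearest tested protein-coding genes on each side were read in the same fit. Before the block 1 of 5 was higher in M5_O5, JOSD2, a deubiquitinase gene, at 0.36 on the log2 scale (edgeR, adjusted p = 0.0287), and NR1H2, POLD1, GARIN5A and EMC10 did not pass. After the block ETFB, which encodes a subunit of a mitochondrial electron carrier, was higher (0.27, adjusted p = 0.0136) and SPACA6, a gene of sperm and egg fusion, was lower (-0.45, adjusted p = 0.0208), while CTU1, VSIG10L and ZNF175 did not pass. The 3 of 10 that passed stand beside 37.1% of all genes tested, and none of the 10 was past 2-fold. Log2 fold changes ran from -0.17 to 0.43 before the block and from -0.45 to 0.30 after it. Within the block KLK5, KLK7 and KLK11 passed and KLK8 and KLK10, which lie between KLK7 and KLK11 in RefSeq order, had intervals of -0.24 to 0.14 and -0.13 to 0.13.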
